A study of Mus musculus with 4 samples.

Results

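The interleukin 1 family on this inflammation panel consisted of *Il1a*, *Il1b*, *Il1rn*, *Il1r1* and *Il33*, which were taken by gene symbol and make up 5 of its 84 target genes. Expression had been measured by SYBR Green RT-qPCR on 4 arrays, 2 for each of 2 groups of adult FVB mice. One group received intramuscular E-sel/AAV2/2, an adeno-associated virus (AAV) carrying the murine E-selectin gene, and the control group received LacZ/AAV2/2, the same virus with a bacterial reporter gene, each at a dose of 1e+11 viral genomes. All mice of both groups also underwent interruption of the femoral artery and, by the study's methods, the femoral vein, and received intraperitoneal L-NAME, a nitric oxide synthase inhibitor, at 40 mg/kg, and the ischemic adductor and gastrocnemius muscles were taken at 21 days. There was no untreated or non-ischemic group, and the promoter that drove either transgene was not given in the sources used here. By the series text equal amounts of RNA were pooled from 3 mice per group and the array was run again on the pool, whereas the study's methods describe duplicate runs on samples from several mice per group without naming a pool. The arrays were read here as repeats of 1 pool per group, and on that reading all SD and p-values below carry assay error without the spread between animals. *Sele* itself is not among the genes analysed here, nor does the panel hold a gene that defines skeletal muscle or endothelium, so neither the transgene nor the tissue label could be checked.

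IL-1α and IL-1β, encoded by *Il1a* and *Il1b*, are agonists that bind the type 1 receptor encoded by *Il1r1* and activate NF-κB, which in endothelium induces adhesion molecules including E-selectin. The product of *Il1rn*, the IL-1 receptor antagonist, occupies the same receptor without signaling, so that the ratio of antagonist to agonist helps to set how much receptor signals. IL-33, encoded by *Il33*, is a nuclear alarmin of stromal and endothelial cells that acts through a different receptor, ST2, whose gene is not among those analysed here. IL-1β needs proteolytic cleavage before it can signal, and mRNA does not report on that step.

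The question was whether agonists, antagonist and receptor were differently balanced in muscle that had received the E-selectin gene. *Il1a* read higher and *Il1rn* lower in the E-sel/AAV2/2 pool, each on both arrays, and the ratio of *Il1rn* to *Il1a* was lower by 2.91 on the log2 scale. Such separations were common on the panel, where 22.1% of the tested genes read higher on both arrays and 26.0% lower. Of all pairs of tested genes, 21.6% had a ratio that differed by at least as much. *Il1b*, *Il1r1* and *Il33* overlapped between the pools. None of the 5 differences in level passed the threshold of the panel-wide test, an adjusted p under 0.05. Levels are given as ΔCt, that is, the threshold cycle (Ct) less the array's own average over the reference genes *Gapdh*, *Actb*, *Gusb*, *B2m* and *Hsp90ab1*, so a lower ΔCt means more transcript and 1 cycle is a 2-fold difference at full PCR efficiency.

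All 5 genes had a Ct on all 4 arrays, which held for 77 of the 84 targets. *Il1r1* was the most readily detected, with the 16th lowest mean Ct of those 77 genes, followed by *Il33* at position 28, *Il1rn* at 32, *Il1a* at 52 and *Il1b* at 61. This order also reflects the primers of each assay and is no measure of relative abundance. The 4 arrays were not alike. LacZ/AAV2/2 replicate 1 had the latest median Ct of the tested genes, 34.1 against 31.9 to 32.6 on the other arrays, and it was the array on which 2 of the 5 genes, *Il1a* and *Il1b*, passed Ct 35, where few template molecules remain. The reverse transcription control wells averaged a Ct of 24.7 on LacZ/AAV2/2 replicate 2 and 23.1 to 23.6 elsewhere. Repeat arrays of the 5 genes differed by 0.07 to 1.50 cycles of ΔCt with E-sel/AAV2/2 and by 0.23 to 0.77 with LacZ/AAV2/2, where the median gene of the panel differed by 0.76 and 1.12.

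Of the agonists, *Il1a* had a Ct of 33.26 (replicate 1) and 32.69 (replicate 2) in the E-sel/AAV2/2 pool against 36.26 (replicate 1) and 34.27 (replicate 2) in the LacZ/AAV2/2 pool. Its ΔCt was 8.92 and 8.85 with E-sel/AAV2/2 and 11.01 and 10.25 with LacZ/AAV2/2. Both E-sel/AAV2/2 arrays thus read above both LacZ/AAV2/2 arrays, and the E-sel/AAV2/2 arrays lay within 0.07 cycles of each other. The mean ΔCt was 8.89 ± 0.05 and 10.63 ± 0.54 (n = 2 arrays each, SD). The log2 fold change was 1.74 (SE 0.95, 95% interval -0.31 to 3.79), or 3.34-fold. In limma across the 77 genes the adjusted p was 0.396 and the unadjusted p was 0.0898. With Ct values above 35 set to 35 the log2 difference was 1.11.

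*Il1b*, the agonist made chiefly by activated monocytes and macrophages, did not follow *Il1a*. Its Ct was 34.35 and 34.50 with E-sel/AAV2/2 and 36.07 and 34.21 with LacZ/AAV2/2, in replicate order. The corresponding ΔCt was 10.01 and 10.66 against 10.82 and 10.19. The E-sel/AAV2/2 array read lower in ΔCt among the replicate 1 arrays and higher among the replicate 2 arrays, and the groups overlapped. The means were 10.34 ± 0.46 and 10.50 ± 0.45 (n = 2 arrays each, SD), and the log2 difference was 0.17 (SE 0.96, 95% interval -1.89 to 2.23, limma adjusted p = 0.899).

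*Il1rn*, the antagonist, had a Ct of 32.18 and 32.57 with E-sel/AAV2/2 and of 32.10 and 31.41 with LacZ/AAV2/2. Its ΔCt was 7.84 and 8.73 with E-sel/AAV2/2 and 6.85 and 7.39 with LacZ/AAV2/2. Both E-sel/AAV2/2 arrays lay below both LacZ/AAV2/2 arrays in transcript level, the nearest pair being E-sel/AAV2/2 replicate 1 and LacZ/AAV2/2 replicate 2. The mean ΔCt was 8.29 ± 0.63 and 7.12 ± 0.38 (n = 2 arrays each, SD). The log2 fold change was -1.17 (SE 0.96, 95% interval -3.24 to 0.90, limma adjusted p = 0.507), and without E-sel/AAV2/2 replicate 2 it was -0.73.

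*Il1r1*, the signaling receptor, had a Ct of 29.34 and 30.34 with E-sel/AAV2/2 and of 30.59 and 29.60 with LacZ/AAV2/2, and a ΔCt of 5.004 and 6.50 against 5.34 and 5.58. The E-sel/AAV2/2 arrays stood on either side of both LacZ/AAV2/2 arrays and were 1.50 cycles apart, the widest gap between repeat arrays among the 5 genes. The means were 5.75 ± 1.06 and 5.46 ± 0.17 (n = 2 arrays each, SD), and the log2 difference was -0.29 (SE 0.99, 95% interval -2.42 to 1.83, limma adjusted p = 0.873).

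*Il33*, the alarmin, was the steadiest in raw Ct with E-sel/AAV2/2, at 31.17 and 31.24, and read 32.28 and 30.74 with LacZ/AAV2/2. Its ΔCt was 6.83 and 7.40 against 7.03 and 6.72, and the groups overlapped. The means were 7.12 ± 0.40 and 6.87 ± 0.22 (n = 2 arrays each, SD), with a log2 difference of -0.24 (SE 0.95, 95% interval -2.29 to 1.80, limma adjusted p = 0.882). The intervals of *Il1b*, *Il1r1* and *Il33* each reach beyond 4-fold in 1 direction, so a difference of that size could not be told from none.

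**Figure D1:**
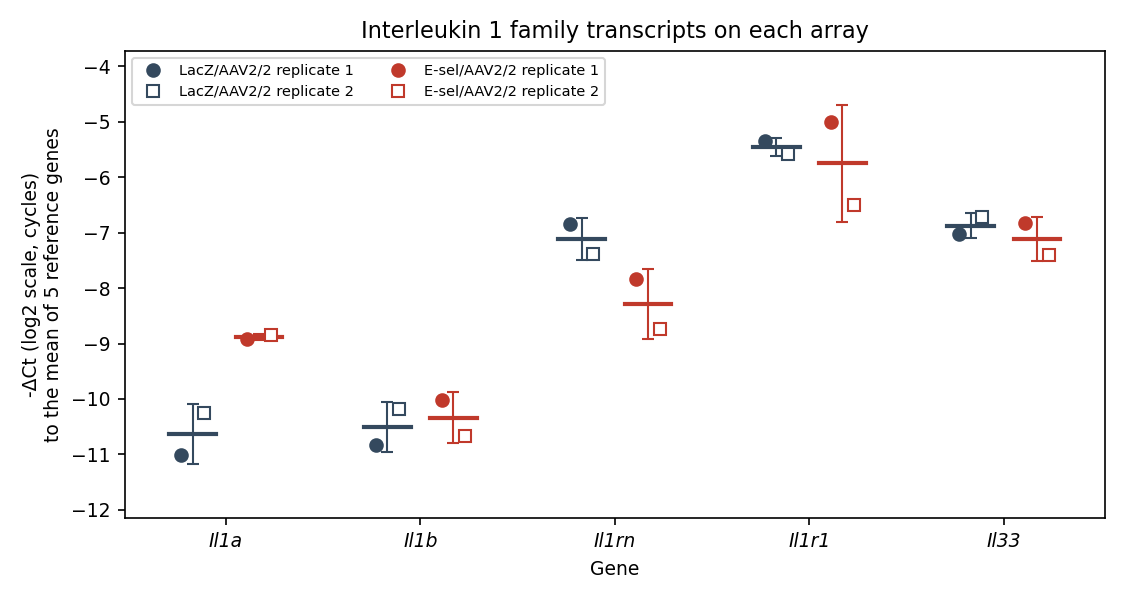
Level of each interleukin 1 family gene as -ΔCt (vertical axis, log2 scale in cycles, higher means more transcript) on the LacZ/AAV2/2 arrays (dark) and the E-sel/AAV2/2 arrays (red), with replicate 1 filled and replicate 2 open, the group mean as a horizontal line and the SD of 2 arrays as a bar. The groups separate for *Il1a*, higher with E-sel/AAV2/2, and for *Il1rn*, lower with E-sel/AAV2/2, and overlap for *Il1b*, *Il1r1* and *Il33*.

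In the limma fit 0 of the 5 family genes were called at an adjusted p under 0.05, where 4 of the 77 tested genes (5.19%) were, and 0 of the 5 had an unadjusted p under 0.05, where 10 of the 77 (13.0%) did. Both E-sel/AAV2/2 arrays read above both LacZ/AAV2/2 arrays for 1 of the 5, against 22.1% of the panel, and below them for 1 of the 5, against 26.0% of the panel. These shares were near the background of the panel. The median log2 difference of the 5 genes was -0.24, beside -0.19 over all tested genes, and 11 genes of the panel read further up than *Il1a* and 21 further down than *Il1rn*. The standard errors of the 5 genes were nearly equal because limma draws each gene's variance toward that of the whole panel, which was noisier than *Il1a*.

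**Figure D2:**
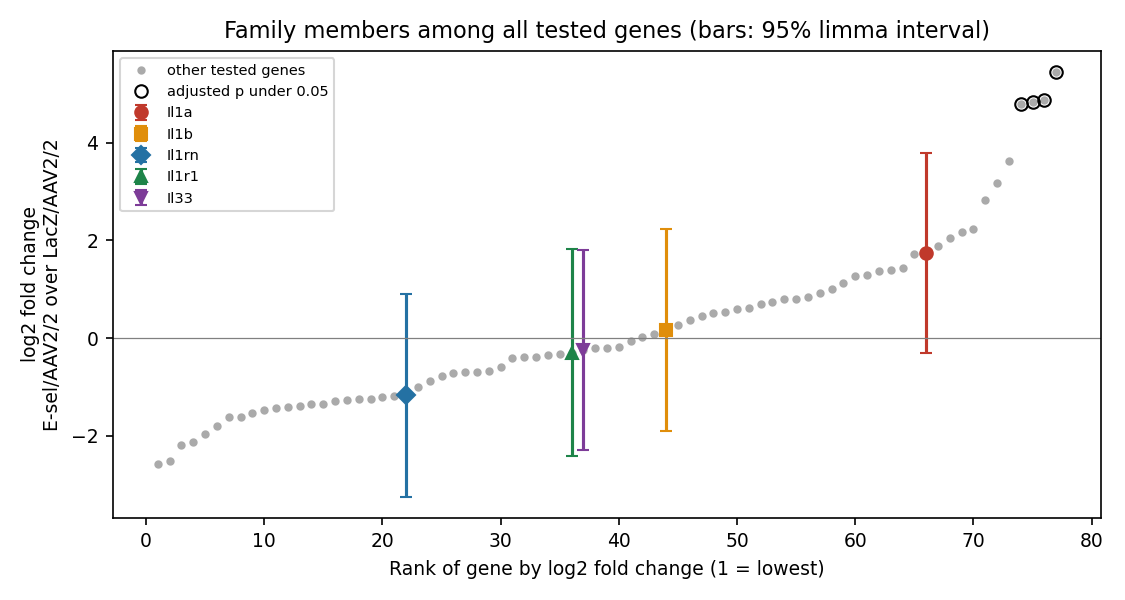
Log2 fold change of E-sel/AAV2/2 over LacZ/AAV2/2 (vertical axis) for the 77 tested genes in rank order (horizontal axis), with the 5 family genes as colored symbols with 95% limma intervals, the 4 genes at an adjusted p under 0.05 ringed and the others in grey. *Il1a* at 1.74 was the highest and *Il1rn* at -1.17 the lowest of the 5 family genes, and all 5 intervals include 0.

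A ratio of 2 genes on the same array needs no reference gene, and a constant offset between the assays drops out when the ratio is compared between groups, although its size in fold still assumes full PCR efficiency of both. The balance of antagonist and agonists was therefore also measured as the Ct of one gene minus that of another. The Ct of *Il1a* came 1.08 and 0.12 cycles after that of *Il1rn* in the E-sel/AAV2/2 pool, in replicate order, and 4.16 and 2.86 cycles after it in the LacZ/AAV2/2 pool. The groups did not overlap, which follows from *Il1a* reading above and *Il1rn* below both LacZ/AAV2/2 arrays on both E-sel/AAV2/2 arrays. The mean log2 ratio of *Il1rn* to *Il1a* was 0.60 ± 0.68 in the E-sel/AAV2/2 pool and 3.51 ± 0.92 in the LacZ/AAV2/2 pool (n = 2 arrays each, SD), a difference of -2.91 or 7.52-fold, and it lay between -3.56 and -2.26 when any 1 array was left out. With Ct values above 35 set to 35 it was -2.28. Neither the lack of overlap nor the sign with 1 array left out adds evidence beyond the levels of the 2 genes.

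For *Il1rn* to *Il1b* the log2 ratio was 2.17 and 1.93 in the E-sel/AAV2/2 pool against 3.97 and 2.80 in the LacZ/AAV2/2 pool. The ratio was again lower on both E-sel/AAV2/2 arrays, with a difference of -1.34 that shrank to -0.75 without LacZ/AAV2/2 replicate 1 and to -0.80 with the ceiling at Ct 35. The ratio of the agonists, *Il1a* to *Il1b*, was 1.09 and 1.81 with E-sel/AAV2/2 and -0.19 and -0.06 with LacZ/AAV2/2, a difference of 1.58 (log2). The agonists were thus read at nearly the same cycle in the control pool, and *Il1a* was read earlier than *Il1b* in the E-sel/AAV2/2 pool.

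The receptor was compared with both sides of this balance. The log2 ratio of *Il1r1* to *Il1rn* was 2.84 and 2.23 with E-sel/AAV2/2 and 1.51 and 1.81 with LacZ/AAV2/2, higher on both E-sel/AAV2/2 arrays by a mean of 0.88, which was 0.57 without E-sel/AAV2/2 replicate 1. The log2 ratio of *Il1r1* to *Il1b* was 5.01 and 4.16 against 5.48 and 4.61. Here the groups overlapped, and the mean difference of -0.46 turned to 0.075 with the ceiling at Ct 35.

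**Figure D3:**
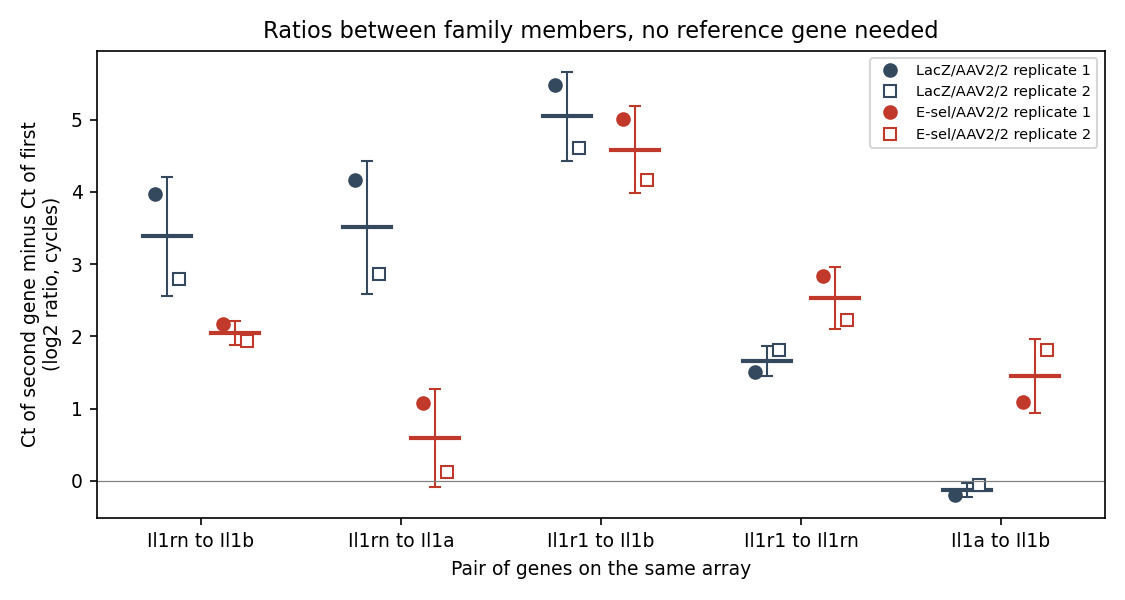
Log2 ratio of 2 family genes on the same array (vertical axis, Ct of the second gene minus Ct of the first, in cycles) for 5 pairs, with LacZ/AAV2/2 arrays dark, E-sel/AAV2/2 arrays red, replicate 1 filled, replicate 2 open, the mean as a line and the SD of 2 arrays as a bar. The ratio of *Il1rn* to *Il1a* shows the widest separation of the 5, at 0.12 and 1.08 with E-sel/AAV2/2 against 2.86 and 4.16 with LacZ/AAV2/2.

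With 2 arrays per group an exact two-sided permutation test cannot go below p = 0.333, and this was the value for the 4 of these 5 ratios that did not overlap. For *Il1r1* to *Il1b* the exact permutation p was 0.667. No adjustment over the 5 ratios could bring these p-values lower. Of all 10 pairs that the 5 genes form, 8 did not overlap between the groups, but the pairs share genes and arrays, and 54.2% of the 2926 pairs of tested genes did not overlap either. A difference of 2.91 or more was found in 21.6% of those 2926 pairs, and the median size over them was 1.50. The share of pairs with a difference at least as large was 48.2% for *Il1a* to *Il1b* and 54.4% for *Il1rn* to *Il1b*. It was 69.7% for *Il1r1* to *Il1rn* and 83.9% for *Il1r1* to *Il1b*. The shift of *Il1rn* against *Il1a* was therefore larger than the spread between its repeat arrays but was not unusual in size for this panel.

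The level of each gene, unlike these ratios, depended on the reference. With *B2m* as the only reference *Il1a* was higher by 0.30 and *Il1rn* lower, at -2.61 (log2). With *Gapdh* as the only reference *Il1a* was higher by 2.86 and *Il1rn* was at -0.055, close to equal. The sign of *Il1a* and that of *Il1rn* held under each reference tried, whereas *Il1b* ran from -1.28 to 1.28, *Il1r1* from -1.74 to 0.82 and *Il33* from -1.69 to 0.87 across the settings. The median of the whole panel moved in the same way, from -1.64 with *B2m* alone to 0.92 with *Gapdh* alone. The distance of a gene from the panel median is by arithmetic the same under every reference. Relative to that median *Il1a* was higher by 1.94, *Il1b* by 0.36, and *Il1rn*, *Il1r1* and *Il33* were at -0.98, -0.10 and -0.05, respectively.

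**Figure D4:**
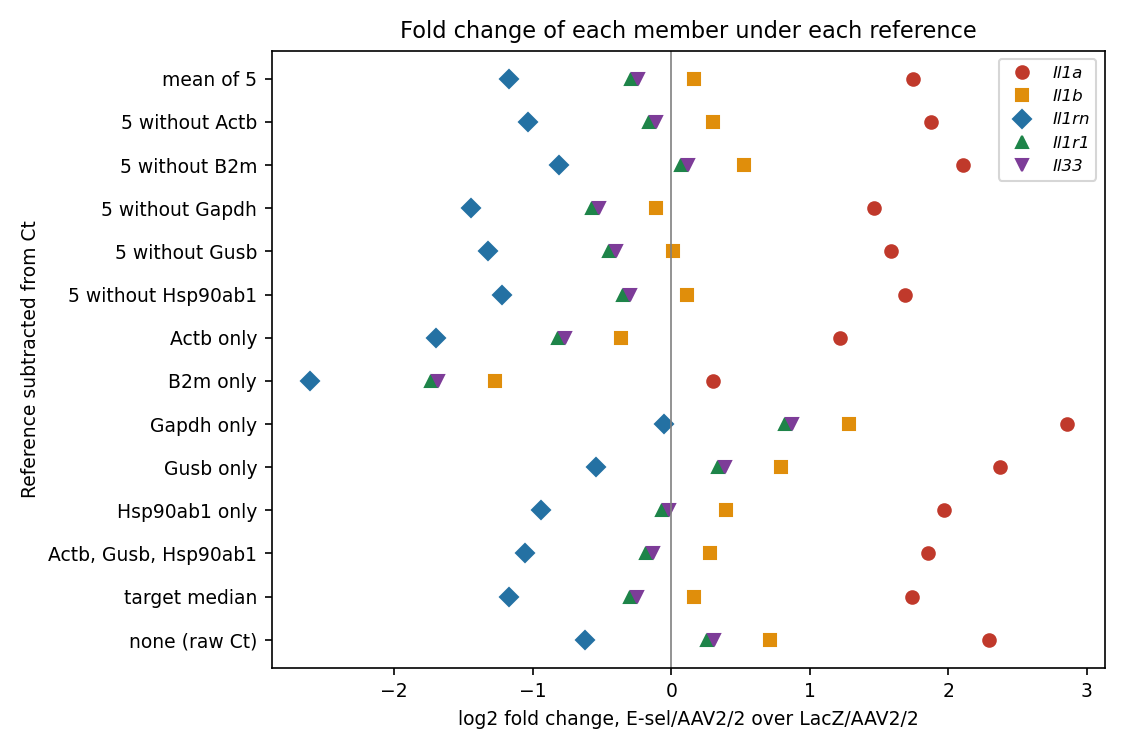
Log2 fold change of E-sel/AAV2/2 over LacZ/AAV2/2 (horizontal axis) of the 5 family genes under each reference subtracted from the Ct (rows). The genes keep the same spacing in every row while the row as a whole slides, from *B2m* alone (*Il1a* at 0.30, *Il1rn* at -2.61) to *Gapdh* alone (*Il1a* at 2.86, *Il1rn* at -0.055).

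Genes that IL-1 signaling is known to induce were described next. Of the 9 such genes on the panel (*Ccl2*, *Ccl7*, *Ccl20*, *Csf2*, *Csf3*, *Cxcl1*, *Cxcl5*, *Il11* and *Tnf*), 7 were tested, and 0 passed in limma either at an adjusted or at an unadjusted p under 0.05. *Ccl20* had no Ct on LacZ/AAV2/2 replicate 1 and a late one, 36.06, on replicate 2, against 33.71 and 32.14 with E-sel/AAV2/2. *Il11* had no Ct on E-sel/AAV2/2 replicate 2 and read 37.61 to 38.07 on the other arrays. Neither gene entered the fit or the values that follow. Among the 7 tested genes the log2 difference was above 0 for 3 and below 0 for 4, with a median of -0.39 beside -0.19 over all tested genes. *Csf2*, a growth factor of granulocytes and macrophages, was the highest of these 7 at 1.13 (SE 2.17, limma adjusted p = 0.799). Its E-sel/AAV2/2 arrays were far apart, with a Ct of 29.29 and 38.90 against 35.94 and 35.60 in the LacZ/AAV2/2 pool, and its log2 difference was -3.93 without E-sel/AAV2/2 replicate 1 but 6.18 when replicate 2 of that group was omitted. *Cxcl5*, a neutrophil chemoattractant, was the lowest at -1.34 (SE 0.99, limma adjusted p = 0.507). The summed level of the 7 genes, as 2 to the power of -ΔCt in thousandths, was 54.3 and 38.4 in the E-sel/AAV2/2 pool against 22.1 and 80.9 in the LacZ/AAV2/2 pool, so the E-sel/AAV2/2 arrays lay between the LacZ/AAV2/2 arrays. *Csf2* alone supplied 32.3 of the 54.3 on E-sel/AAV2/2 replicate 1, and without it the sums were 22.1 and 38.4 against 21.5 and 80.6.

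IL-33 acts on type 2 lymphoid cells and macrophages, and 5 genes of that response were on the panel, *Il4*, *Il5*, *Il13*, *Ccl17* and *Ccl24*. All 5 were tested and 0 were called in limma at an adjusted p under 0.05. An unadjusted p under 0.05 was found for 1 of them, and for 13.0% of the panel. That gene was *Il5*, an eosinophil growth factor, with a log2 difference of -2.18 (SE 0.95, limma adjusted p = 0.299). Both E-sel/AAV2/2 arrays lay below both LacZ/AAV2/2 arrays, as they did for 26.0% of the panel. The Ct of *Il5* was past 35 with E-sel/AAV2/2, at 36.19 and 35.48, against 34.43 and 33.97 with LacZ/AAV2/2. *Il13*, a type 2 cytokine, was the highest at 0.63 (SE 1.00, limma adjusted p = 0.542). The median of the 5 was 0.03, with 3 genes above 0 and 2 below.

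In bulk muscle, a lower number of cells of a type cannot be told apart from less RNA per cell. Transcripts of leukocyte marker genes on the same arrays were read next, and they do not count cells. The study itself counted T cells and macrophages in calf muscle at the same time point and reported no significant difference between the groups. Of the 6 lymphocyte genes (*Cd40lg*, *Cxcr3*, *Cxcr5*, *Fasl*, *Il2rb* and *Ltb*), all 6 had a log2 difference above 0 with a median of 2.70. The groups overlapped for *Cxcr3* and *Fasl*. *Cd40lg* and *Fasl* were past Ct 35 on all 4 arrays, and *Il2rb* read 36.43 and 36.29 with LacZ/AAV2/2. Only 1 of the 6, *Cxcr5*, a B-cell chemokine receptor, was called, at 5.45 (SE 1.07, limma adjusted p = 0.00624). Its Ct on the LacZ/AAV2/2 arrays was late, 38.23 and 34.99, and with Ct values above 35 set to 35 the log2 difference was 3.83 (limma adjusted p = 0.000679). The call was lost with *B2m* alone (4.01, limma adjusted p = 0.0573), without E-sel/AAV2/2 replicate 1 (4.62, limma adjusted p = 0.324) and when replicate 2 of that group was omitted (6.27, limma adjusted p = 0.189). The summed level of the 6 genes was 116 and 48.0 in the E-sel/AAV2/2 pool against 12.4 and 11.6 in the LacZ/AAV2/2 pool, on the same scale of thousandths. Such sums weight each assay by its own Ct, and *Ltb*, a lymphotoxin subunit, made up most of this one on 3 of the 4 arrays. The sum was higher on both E-sel/AAV2/2 arrays, also without *Ltb* (31.0 and 16.6 against 3.50 and 9.62), and no lymphocyte gene was without a Ct on any array. Of the 3 myeloid receptor genes 0 were called, and their summed level was 26.0 and 16.2 in the E-sel/AAV2/2 pool against 26.4 and 90.0 in the LacZ/AAV2/2 pool. That sum was nearly equal on the replicate 1 arrays, at 26.0 against 26.4. *Ccr2*, a receptor of inflammatory monocytes, supplied 73.3% to 90.6% of it, and without *Ccr2* the groups overlapped (6.94 and 4.14 against 3.08 and 8.47). The log2 difference of *Ccr2* was -0.29 between the replicate 1 arrays and -2.75 between the replicate 2 arrays. *Ccr2* was at -1.52 (SE 1.01, limma adjusted p = 0.507), *Ccr1*, a chemokine receptor of monocytes and neutrophils, at -0.88 with overlapping groups (SE 0.99, limma adjusted p = 0.681), and *Cxcr2*, a neutrophil receptor, at 1.90 (SE 1.04, limma adjusted p = 0.396). The platelet gene *Pf4* summed to 48.6 and 48.0 against 50.7 and 61.0. Whether the higher lymphocyte sum came from more cells was not tested, nor was the part of any of these cell types in the readings of *Il1a* and *Il1rn*.

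The genes whose pattern over the 4 arrays lay nearest to each family gene were found by the root mean square difference in -ΔCt after each gene was centered on its mean, among 76 other genes. *Il1a* lay nearest to *Il7*, a lymphocyte growth factor (0.43 cycles), and *Ccl5*, a T-cell chemoattractant (0.45), where the median gene was 1.25 away. *Il1rn* lay nearest to *Il6st*, the shared receptor subunit of the interleukin 6 family (0.27), and *Tnfsf13*, a B-cell survival ligand (0.31), with a median of 1.07. *Il1b* and *Il33* lay near each other (0.24), and their other nearest genes were *Tnfrsf11b*, the decoy receptor of RANKL (0.31 from *Il1b*), and *Pf4*, a platelet chemokine (0.20 from *Il33*). *Il1r1* lay nearest to *Vegfa*, a growth factor of blood vessels (0.34), and to *Tnfsf13* (0.38). These distances describe 4 arrays of 2 pools and carry no test.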

How the data were processed

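Hindlimb muscle RNA, taken as pooled from 3 mice per group, as the series text states, was assayed on 4 Qiagen RT2 Profiler arrays on a Bio-Rad CFX96 instrument, and samples were grouped by the treatment in their titles. The authors deposited the Ct per well without normalization, with empty wells marked as null; threshold settings were not given in the sources used here. A second deposited table gave gene symbols by well. Its ratio columns, the authors' own fold changes by replicate number, were not used. All 89 gene symbols matched the GRCm38.p6 RefSeq table. The files name no genome build, so no coordinates are given.

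Following the study's methods, ΔCt was taken to the mean of the 5 reference genes, and -ΔCt was fitted by group without covariates in limma (version 3.58.1, R 4.3.3; empirical Bayes, two-sided). Benjamini-Hochberg adjustment ran over the 77 targets that had a Ct on all 4 arrays. Late Ct values were kept, and full PCR efficiency was assumed. The limma script was tested on simulated data. Ratios within an array were compared by an exact permutation test in scipy 1.17.1. The precision is limited by 2 repeat arrays of 1 pool per group. Other settings covered the reference, late and missing Ct values, the omission of each array, a block for replicate number, a mean-variance trend and the set of genes tested.

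The members and gene lists were chosen with earlier results of these data known. All 5 family genes were named, along with the highest, lowest and called genes of each list and the 2 genes nearest in pattern to each member. The share among all pairs of genes and the settings for *Cxcr5* and *Csf2* were computed after the data had been seen.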

Additional observations from a re-analysis of the deposited data

How the results depend on the processing

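The number of family genes called in limma was 0 under the 23 other settings that tested any of them. *Il1a* and *Il1rn* kept their direction in all 18 settings that altered the reference, late Ct values or arrays. The ceiling at Ct 35 touched no *Il1rn* reading. Dropped arrays could not reverse them, as the groups did not overlap, nor could dropped references, as each reference alone kept the sign. The block, trend, empty-well fill, Ct filters and wider gene set leave their differences unchanged by construction. Over all settings they had an adjusted p of 0.163 to 0.877 for *Il1a* and 0.123 to 0.966 for *Il1rn*. The filter at Ct 30 removed all 5 genes and that at Ct 35 *Il1a* and *Il1b*. The other 3 genes changed sign with the setting. *Il1b* turned to -0.11 without *Gapdh*, -0.36 with *Actb* alone, -1.28 with *B2m* alone and -0.37 with Ct above 35 set to 35. *Il1r1* and *Il33* turned to 0.0675 and 0.12 without *B2m*, 0.82 and 0.87 with *Gapdh* alone, 0.34 and 0.39 with *Gusb* alone, and 0.26 and 0.31 with raw Ct. With each array left out, *Il1a* ran from 1.36 to 2.13, *Il1b* from -0.16 to 0.49, *Il1rn* from -1.61 to -0.73, *Il1r1* from -1.04 to 0.46 and *Il33* from -0.53 to 0.04. *Csf2*, added with the data seen, turned to -0.32 with *B2m* alone and ran from -3.93 to 6.18 with each array left out. *Il1b* was below 0 without E-sel/AAV2/2 replicate 1 or LacZ/AAV2/2 replicate 1, and *Il1r1* and *Il33* were above 0 without E-sel/AAV2/2 replicate 2. Of the ratios, *Il1r1* to *Il1b* turned to 0.075 with the ceiling at Ct 35, which lowers the late *Il1b* reading of LacZ/AAV2/2 replicate 1. With each array left out, the ratio of *Il1rn* to *Il1b* ran from -1.92 to -0.75, *Il1rn* to *Il1a* from -3.56 to -2.26, *Il1r1* to *Il1b* from -0.90 to -0.025, *Il1r1* to *Il1rn* from 0.57 to 1.18 and *Il1a* to *Il1b* from 1.22 to 1.94.

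The panel-wide count of 4 called genes became 0 with *B2m* alone (26 at an unadjusted p under 0.05), 7 with *Gapdh* or *Gusb* alone, 0 of 10 genes under the Ct 30 filter (0 at an unadjusted p under 0.05), and 0 to 6 with each array left out, where 0 calls were made without E-sel/AAV2/2 replicate 1 (8 unadjusted) or E-sel/AAV2/2 replicate 2 (7 unadjusted). No source ties the replicate numbers to a batch, and 2 pairs cannot establish a pairing. Deviations of same-numbered arrays correlated at r = 0.332 across genes, which are not independent. With the replicate block 5 panel genes and 0 family genes were called, *Il1a* having an adjusted p of 0.444 and *Il1rn* of 0.536. In this balanced design the block bears on the p-values only.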
